A study of Mus musculus with 15 samples.

Results

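The genes described are 9 that encode the neural extracellular matrix: the lecticans Vcan (versican), Bcan (brevican), Ncan (neurocan) and Acan (aggrecan), the link protein gene Hapln1, the tenascins Tnc and Tnr, and the membrane proteoglycans Cspg5 (neuroglycan C) and Ptprz1 (phosphacan). They were taken by symbol, whatever their values, and all 9 were found among the 46679 genes measured. RNA was sequenced from naïve brain and from end-stage tumors of 4 syngeneic lines of C57BL/6 mice, CT2A, GL261, 005 and Mut3, with 3 mice per group and 15 libraries in all. Each line is 1 line, and its tumors are therefore separate mice but not separate origins. CT2A (p53 wild type) and GL261 (mutant K-ras and p53) were induced with methylcholanthrene, whereas 005 (activated H-ras and AKT in p53+/− mice) and Mut3 (NF1 and p53 inactivated) came from genetically altered mice. All 4 lines carried GFP and firefly luciferase. The implant was 500000 cells for Mut3 and 100000 for each of the other lines, in mice 6 to 8 weeks old that were perfused with PBS before the tissue was taken.

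Brain matrix holds little fibrous collagen. It is built on hyaluronan chains to which lecticans, large proteoglycans that carry chondroitin sulfate, bind at one end, with link proteins that lock the bond. Tenascin-R crosslinks the lecticans at their other end, and in adult brain this assembly forms the perineuronal nets around parvalbumin interneurons. Versican and tenascin-C are prominent in developing tissue and in wounds, and brevican, tenascin-C and phosphacan are known from human gliomas.

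The total count ranged from 3105119 to 13130158 per library, and 3 counts, the smallest level taken as shown, were 0.214 to 0.811 CPM, that is, counts relative to the library total after scaling by TMM, a normalization between libraries. This floor covers counting error only. Levels between samples are given as TMM-scaled CPM, and levels between genes as TPM, which is per length. The summed CPM of 7 neuron markers was 3750 to 6200 in naïve brain. It was 43.7 to 133 in Mut3, 209 to 1010 in CT2A and 732 to 1740 in GL261. In 005 it was 556, 171 and 3420 in replicates 1, 2 and 3. 005 replicate 3 therefore stood apart from its group and close to naïve brain, also in the summed CPM of 6 mature oligodendrocyte markers (4590, against 602 and 426 in the other two 005 tumors). Naïve replicate 2 stood apart in the same markers, at 4110 where the other naïve libraries were at 1610 and 1630. Results that rest on these 2 libraries are given with and without them.

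In the genome (GENCODE M21 on GRCm38, the build the submitters' processing notes name as mm10) each lectican gene lies beside the gene of a link protein, with 0 protein-coding genes between them. Vcan (ENSMUSG00000021614, chr13:89655312-89742509, minus strand) is 43659 bases from Hapln1 (ENSMUSG00000021613, chr13:89539796-89611652, plus strand). Acan (ENSMUSG00000030607, chr7:79053483-79115099, plus strand) ends 2 bases from Hapln3. Bcan (ENSMUSG00000004892, chr3:87987531-88000230, minus strand) is 21519 bases from Hapln2, and Ncan (ENSMUSG00000002341, chr8:70093085-70120873, minus strand) is 2222 bases from Hapln4. The tenascins are Tnc (ENSMUSG00000028364, chr4:63959785-64047015, minus strand) and Tnr (ENSMUSG00000015829, chr1:159523769-159931729, plus strand). Cspg5 (ENSMUSG00000032482, chr9:110243783-110262576, plus strand) and Ptprz1 (ENSMUSG00000068748, chr6:22875502-23052916, plus strand) complete the set. Genes on the opposite strand overlap Tnc (8030451A03Rik), Tnr (Gm38039), Vcan (Gm4117) and others, and the sources used here do not say whether strand was counted, so reads from these pairs may not be separable.

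Of the 9 genes, 8 had a promoter in the RefSeq table for GRCm38.p6. The 250 bases before the start are shown for 4 genes that were higher in tumors, Vcan (in all lines), Acan and Tnr (in Mut3) and Tnc (in 005), to show how unlike the promoters are of such genes. Capitals mark CpG dinucleotides, and each is read 5′ to 3′ on the gene's strand.
Vcan, chr13:89742513-89742762, minus strand: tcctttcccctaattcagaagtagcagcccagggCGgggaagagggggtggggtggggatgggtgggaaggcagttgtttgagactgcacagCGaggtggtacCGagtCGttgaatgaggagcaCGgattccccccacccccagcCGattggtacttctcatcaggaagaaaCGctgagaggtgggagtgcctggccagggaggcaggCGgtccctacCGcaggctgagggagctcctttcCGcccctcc
Acan, chr7:79052976-79053225, plus strand: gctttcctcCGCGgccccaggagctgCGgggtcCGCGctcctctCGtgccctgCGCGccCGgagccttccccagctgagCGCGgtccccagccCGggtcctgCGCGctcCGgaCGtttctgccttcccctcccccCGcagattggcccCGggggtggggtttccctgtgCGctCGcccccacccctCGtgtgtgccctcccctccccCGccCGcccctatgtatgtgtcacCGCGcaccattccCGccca
Tnr, chr1:159523519-159523768, plus strand: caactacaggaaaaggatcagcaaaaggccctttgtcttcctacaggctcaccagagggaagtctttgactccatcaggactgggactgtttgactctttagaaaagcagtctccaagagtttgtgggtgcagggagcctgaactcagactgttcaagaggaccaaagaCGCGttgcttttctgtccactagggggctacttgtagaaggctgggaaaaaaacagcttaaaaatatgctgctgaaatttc
Tnc, chr4:64047016-64047265, minus strand: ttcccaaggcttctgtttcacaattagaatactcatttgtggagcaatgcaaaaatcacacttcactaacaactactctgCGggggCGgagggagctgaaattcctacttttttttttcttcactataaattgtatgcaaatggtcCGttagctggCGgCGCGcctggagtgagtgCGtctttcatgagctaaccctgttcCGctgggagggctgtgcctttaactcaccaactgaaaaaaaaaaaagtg
The Acan window held 26 CpG in 74.4% GC, a number reached by 9.24% of the 27025 windows of this length in the table. That of Tnr held 2 in 46.8% GC, and 29.6% of all windows had 2 or fewer. Vcan had 10 CpG (62.4% GC) and Tnc 8 (44.8% GC), where the median of all windows was 6 CpG and 52% GC. Of the genes not printed, Ptprz1 had 22, Bcan 16, Ncan 6 and Hapln1 2, although the Hapln1 window lies within sequence that GENCODE annotates as transcribed. The letters TATAAA, searched on both strands, occurred in the windows of Tnc and Ncan and in 13% of all windows. The windows of Acan and Tnr, both highest in Mut3, thus lay above and below the median CpG content. These are descriptions of the windows, and binding to them was not measured here.

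Acan passed the filter on low counts through Mut3 alone, where it had to be high, so its calls are left out of the counts that follow, which are over the other 8 genes. All 8 differed among the 5 groups in edgeR's quasi-likelihood F test (adjusted p from 1.35e-04 for Hapln1 to 0.0184 for Ncan), as did 52.1% of the 17481 genes tested. Against naïve brain, a gene was called when its p, adjusted over all tested genes by Benjamini-Hochberg, was under 0.05 and its log2 fold change was 1 or more in either direction. In CT2A, 1 gene rose (Vcan) and 4 fell (Bcan, Ncan, Cspg5, Ptprz1), where 19.0% of all genes rose and 20.2% fell. In Mut3, 3 rose (Vcan, Hapln1, Tnr) and 2 fell (Ncan, Cspg5), against 17.9% and 19.8% of all genes. In GL261, Vcan alone rose and 0 fell, against 14.6% and 7.77%. DESeq2, however, called 6 there (Vcan and Tnc higher, Bcan, Ncan, Hapln1 and Cspg5 lower), where it called 5167 of 17481 genes in either direction. In 005, Vcan and Tnc rose and 0 fell, against 11.6% and 1.05%. Without 005 replicate 3, 5 also fell in 005 (Bcan, Ncan, Hapln1, Cspg5, Ptprz1). In either direction 7 of the 8 were then called, as were 35.7% of all genes. Without naïve replicate 2 as well, 3 fell (Ncan, Hapln1, Cspg5), and 5 were called in either direction, against 33.3% of all genes. The same omissions gave 4 and 3 falls in GL261, with a rise of Tnc beside that of Vcan. In either direction 6 and 5 were called there, against 30.2% and 24.4% of all genes. The median log2 fold change of the 8 genes was 0.99 in Mut3, −1.73 in CT2A, −1 in 005 and −1.09 in GL261, and that of all tested genes was 0.11, −0.04, 0.01 and −0.08. The 4 comparisons share the naïve libraries, and are not independent. In bulk tissue, fewer cells of a type and less RNA per cell cannot be told apart.

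**Figure D1:**
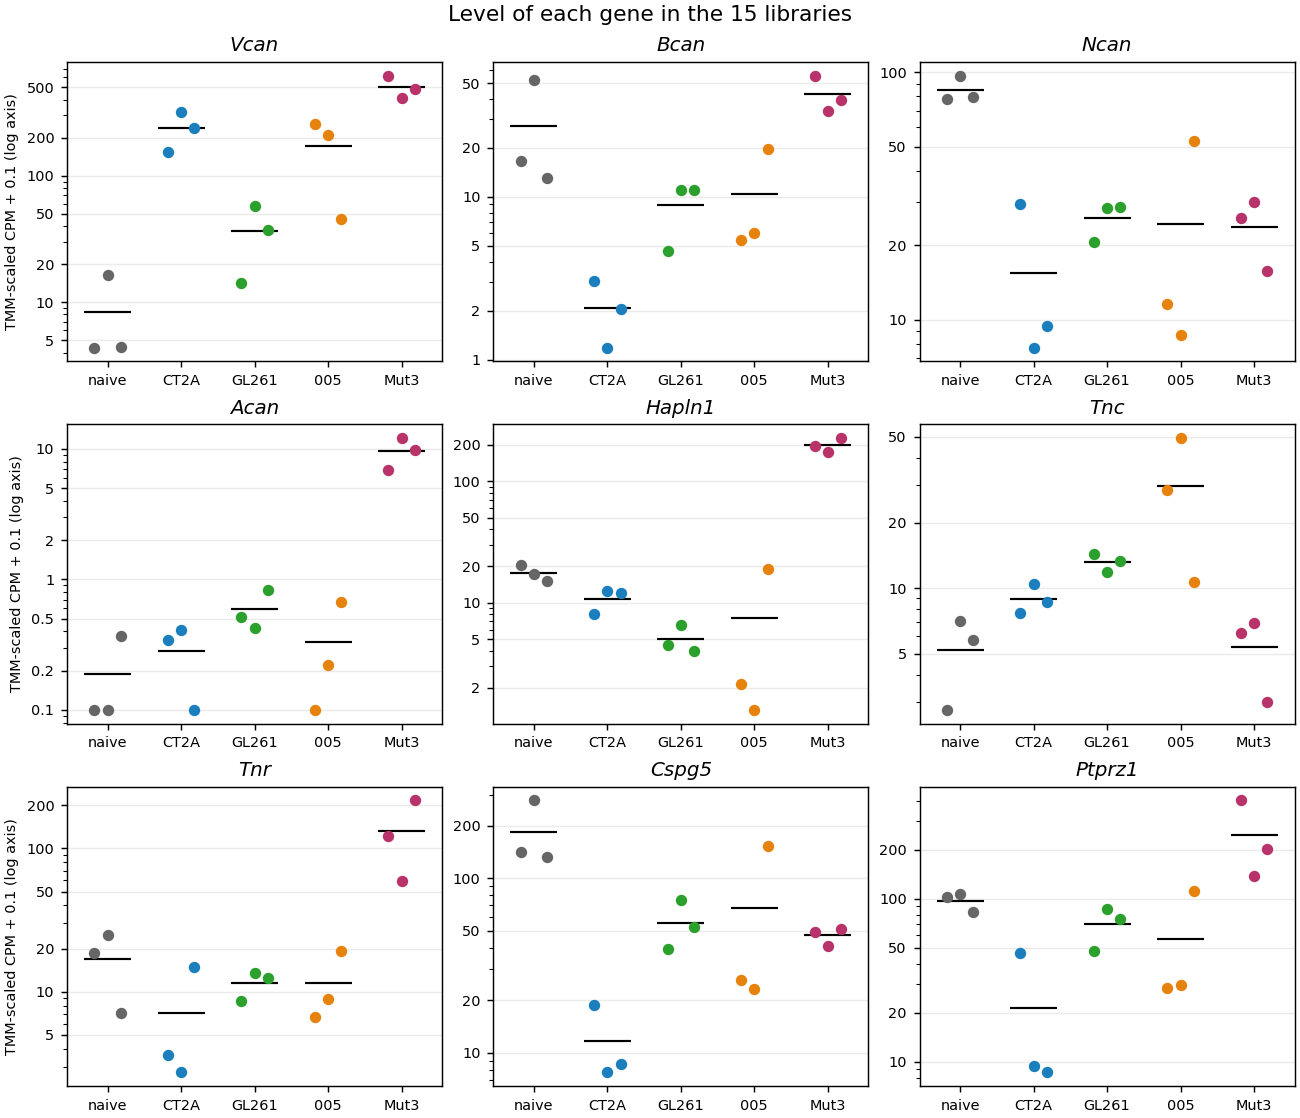
Level of each of the 9 genes in the 15 libraries, as TMM-scaled CPM plus 0.1 on a log axis. Points are mice and black lines are group means. Vcan lies lowest in naïve brain, Acan, Hapln1 and Tnr stand out in Mut3, Ncan is highest in naïve brain, and 005 replicate 3 is the highest or lowest 005 point in every panel.

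Vcan rose over naïve brain in all 4 lines by edgeR's test, the only one of the genes to do so, although its call in GL261 was fragile. Versican is a lectican of loose and developing connective tissue that other parts of the body share with brain. It was at 4.28, 16.2 and 4.33 CPM in naïve brain and at 154, 317 and 240 in CT2A. GL261 had 14.1, 57.9 and 37.5, and 005 had 258, 210 and 45.3. Mut3 was highest at 619, 409 and 485, and only GL261 overlapped naïve brain, through its replicate 1 and naïve replicate 2. The log2 fold change was 5.93 in Mut3 (SE 0.78, adjusted p = 2.16e-04), 4.84 in CT2A (SE 0.74, adjusted p = 5.7e-04) and 4.37 in 005 (SE 0.73, adjusted p = 0.00212). In 005 the call was lost when only the samples compared were fitted (4.43, adjusted p = 0.0505). That of GL261 was smaller, 2.15 (SE 0.67, adjusted p = 0.0346), and was lost without naïve replicate 1 or 3 or GL261 replicate 2 or 3, at 1.66 to 2.05. It was also lost with library size in place of TMM (1.97, adjusted p = 0.0583) and in limma on log2(TPM + 1) and log2(TPM + 0.1), at 0.65 (adjusted p = 0.243) and 1.24 (adjusted p = 0.136). From the highest mean down, neighbouring groups (Mut3, CT2A, 005, GL261) did not differ by the test (adjusted p from 0.0986 to 0.657), and only the last step, from GL261 to naïve brain, did. The summed CPM of 6 fibroblast and mural cell markers was 439 to 654 in CT2A, 136 to 222 in Mut3 and 90.4 to 119 in naïve brain, so the line with the highest Vcan was not the one with the most of these transcripts. Their part in the result was not tested.

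Bcan and Ncan are the lecticans of mature brain. Both fell in CT2A, and Ncan also in Mut3. Bcan was at 16.5, 52.3 and 13 CPM in naïve brain, with the highest value in replicate 2, the library rich in oligodendrocyte transcripts. CT2A had 2.93, 1.09 and 1.94, below every other library, and its log2 fold change was −3.75 (SE 0.68, adjusted p = 0.00141). Mut3 kept 55.4, 33.7 and 39.1, a log2 difference of 0.65 from naïve brain that did not pass (SE 0.59, adjusted p = 0.402), and that became a rise of 1.70 without naïve replicate 2. GL261 (4.56, 11 and 10.9) and 005 (5.36, 5.92 and 19.5) lay between, with log2 differences of −1.62 (adjusted p = 0.0665) and −1.40 (adjusted p = 0.132). None of the neighbouring steps from Mut3 through naïve brain, 005 and GL261 to CT2A passed the test (adjusted p from 0.0587 to 0.925), although the ends of that order did differ. Ncan, a product of neurons and astrocytes, was at 77.9, 96.9 and 79.2 CPM in naïve brain, above every tumor. The fall of Ncan in CT2A (29.3, 7.61 and 9.30, log2 fold change −2.45, SE 0.64, adjusted p = 0.00851) stood beside one in Mut3 (25.7, 29.7 and 15.7, −1.84, SE 0.62, adjusted p = 0.0296). The Mut3 call ended when any 1 naïve or Mut3 library was left out, with log2 differences from −2.02 to −1.56. GL261 (20.5, 28.1 and 28.4) was −1.72 below naïve brain (adjusted p = 0.0572), and 005 (11.5, 8.57 and 52.9) −1.79 (adjusted p = 0.0709), which was −3.14 and called without 005 replicate 3. The 4 tumor means lay from 15.4 to 25.7 CPM and no 2 neighbours among them differed by the test (adjusted p from 0.55 to 0.977).

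The order of the lecticans within a library differed between naïve brain and most tumors. In naïve brain Vcan supplied 3.40%, 5.90% and 3.69% of the lectican TPM, and Bcan and Ncan nearly all the rest (48.5% ± 13.8 and 47.1% ± 15, SD, n = 3). Vcan supplied 81.4%, 96.8% and 94.3% in CT2A and 74.0%, 72.7% and 75.6% in Mut3. It supplied 29.3%, 48.4% and 37.6% in GL261, and 90.2%, 88.4% and 28.8% in 005, the last being replicate 3. All 12 tumors were above the 3 naïve libraries, by a mean of 63.8 percentage points (two-sided exact permutation test, p = 0.0044, which 12 against 3 cannot go below, adjusted p = 0.0147 over 5 shares). The Bcan share was lower in tumors by a mean of −29.4 points and the Ncan share by −35.1, each in 11 of 12 tumors below all naïve libraries (exact permutation test, p = 0.00879 and adjusted p = 0.0147 for both). With counts in place of TPM, which are not per length, these differences were −13.7 and −56.1. The lines differed in what accompanied Vcan. Bcan held 20.3% to 22.4% in Mut3 and 1.12% to 5.23% in CT2A, and in GL261 Bcan and Ncan together still exceeded Vcan in every tumor. In GL261 replicate 1 and in 005 replicate 3, Vcan was still behind both of them. Tumors of a line share their origin, and with 1 naïve library left out the adjusted p of these shares was 0.0549 to 0.0733.

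**Figure D2:**
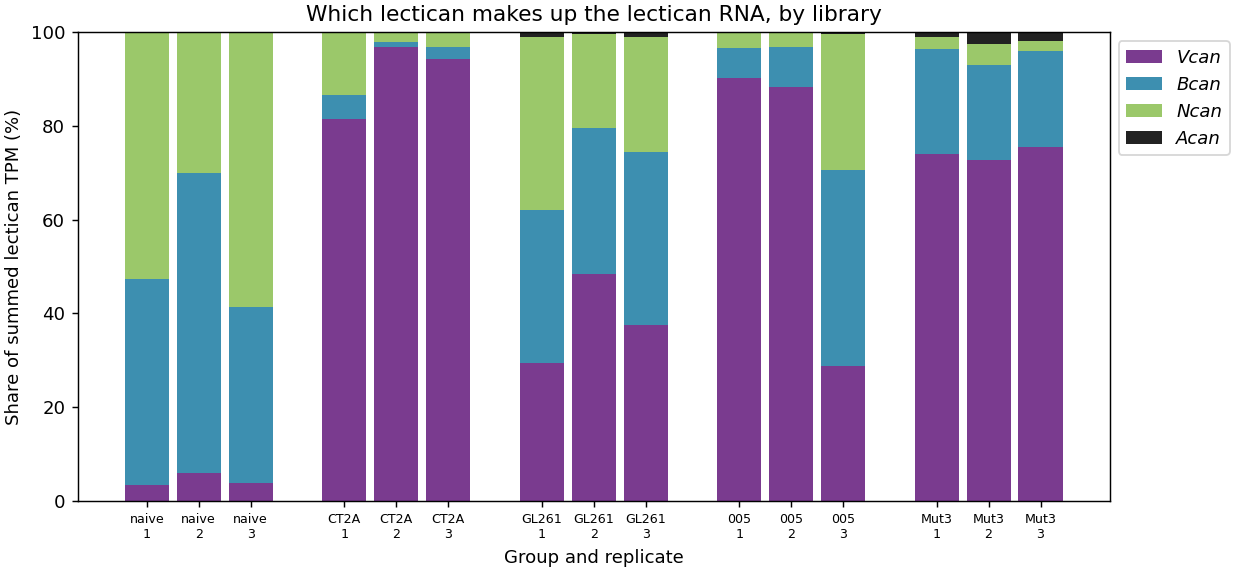
Share of the summed TPM of the 4 lecticans taken by each, in percent, in each of the 15 libraries. Vcan fills 3.40% to 5.90% of the naïve bars and 72.7% to 96.8% of those of CT2A and Mut3, and the bar of 005 replicate 3 (28.8%) resembles those of GL261.

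Acan, the lectican of cartilage and of perineuronal nets, was counted at appreciable levels only in Mut3. It was at 0, 0 and 0.27 CPM in naïve brain. The tumors of 005 had 0, 0.121 and 0.57, those of CT2A 0.244, 0.31 and 0, and those of GL261 0.415, 0.323 and 0.728, values near or under the floor. Mut3 had 6.82, 12 and 9.67, above every other library. In summed counts, 266 in Mut3 stood against 10 in GL261, 9 in 005, 4 in CT2A and 1 in naïve brain. The ratio of pooled counts over pooled library sizes was 119 to naïve brain (95% exact counting interval 21.1 to 4710), 52.7 to CT2A (20.3 to 195), 33.5 to 005 (17.4 to 74.1) and 18.1 to GL261 (9.70 to 38.2). These intervals cover counting error only and leave out the spread between mice. No test of the level of Acan between groups is given, because it passed the filter through Mut3, and only its share was tested. Even there it was a minor lectican, with 0.974% to 2.53% of the lectican TPM. Over all tumors its share differed from naïve brain by 0.638 points (exact permutation test, p = 0.141, adjusted p = 0.176). With 1 count in all, the level of Acan in naïve brain was under the floor and not measurable at this depth. The 3 markers of net-bearing interneurons (Pvalb, Kcnc1 and Kcnc2) summed to 149 to 208 CPM in naïve brain and to 8.80 to 13 in Mut3, so Acan and these markers moved in opposite directions there.

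Hapln1, the link protein that clamps lecticans to hyaluronan, was also higher in Mut3 than in any other group. It was at 196, 172 and 226 CPM there and at 20.2, 17.2 and 14.9 in naïve brain, a log2 fold change of 3.50 (SE 0.73, adjusted p = 0.00213) that was called under every alternative run. CT2A had 7.94, 12.3 and 11.9, GL261 had 4.35, 6.47 and 3.88, and 005 had 2.06, 1.21 and 18.8. All the CT2A and GL261 tumors and 2 of the 005 tumors were below naïve brain, but no fall was called in the fit of all 15 libraries (edgeR, adjusted p = 0.42, 0.0718 and 0.226). The fall of Hapln1 in GL261 was called by DESeq2 (−1.84, adjusted p = 0.0281), by edgeR with no filter (−1.87, adjusted p = 0.0367) or with only the samples compared (−1.70, adjusted p = 0.00673), and without 005 replicate 3 (−1.91, adjusted p = 4.7e-04). Without that library, the 005 difference was −3.46 and was called. Vcan, its neighbour on chromosome 13, rose in all 4 lines, so the 2 genes moved together in Mut3 but not in CT2A, where the log2 fold change was 4.84 for Vcan and −0.71 for Hapln1 (SE 0.68).

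**Figure D3:**
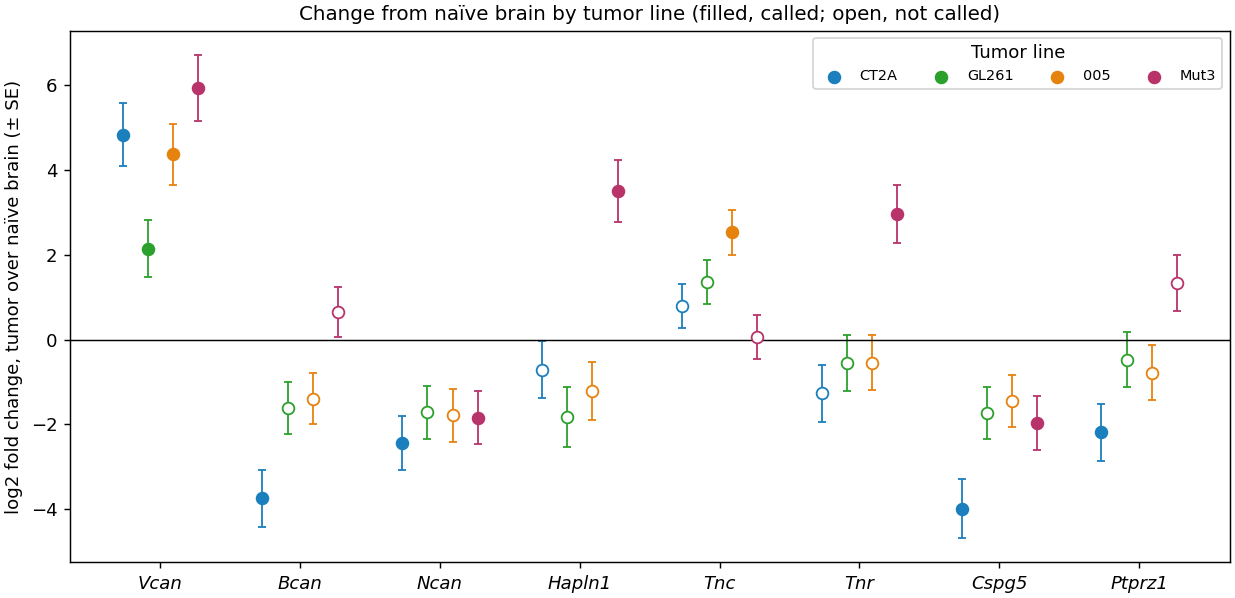
Log2 fold change from naïve brain, with its standard error, for 8 genes in each tumor line (edgeR, 3 mice per group). Filled points passed the call, open points did not. Acan is left out because it was near the floor outside Mut3. Vcan is filled and above 0 in all lines, Hapln1 and Tnr only in Mut3, and Tnc only in 005.

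Of the tenascins, Tnc rose in 005 and Tnr in Mut3, and neither was called lower in any line in the edgeR fit of all 15 libraries. Tnc, which is known for its expression at wound edges and in glioma, was at 2.65, 6.97 and 5.68 CPM in naïve brain and at 28.3, 49.1 and 10.6 in 005, a rise of 2.53 (SE 0.53, adjusted p = 0.00693) that remained called without replicate 3. It was not called when only the samples compared were fitted (2.59, adjusted p = 0.0771) or in limma on log2(TPM + 1), where it was 0.68. GL261 had 14.3, 11.8 and 13.2, above all naïve libraries, with a log2 difference of 1.37 that did not pass (SE 0.52, adjusted p = 0.0676). CT2A had 7.57, 10.4 and 8.53 (0.80, SE 0.52, adjusted p = 0.227), and Mut3 6.15, 6.79 and 2.90, within the naïve range (0.05, SE 0.52, adjusted p = 0.946). The signs of both of these differences turned under other scalings. No neighbouring pair from 005 through GL261, CT2A and Mut3 to naïve brain differed by the test (adjusted p from 0.288 to 0.946). In 005 replicate 2, where Tnc was highest, 6 microglia and macrophage markers summed to 878 CPM and 3 leukocyte markers to 311, against 378 to 379 and 52.9 to 62.4 in the other two, and their part in the result was not tested.

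Tnr, the tenascin of mature oligodendrocytes and their progenitors, was at 18.6, 24.9 and 7.03 CPM in naïve brain and at 122, 59.0 and 216 in Mut3. The rise of 2.97 (SE 0.69, adjusted p = 0.00403) was called under every alternative run. The other lines had 3.54, 2.64 and 14.7 (CT2A), 8.50, 13.4 and 12.3 (GL261) and 6.59, 8.81 and 19.1 (005), all overlapping naïve brain, and neighbouring groups below Mut3 did not differ (adjusted p from 0.538 to 0.997, with naïve brain second to Mut3). Without CT2A replicate 3, however, Tnr was called lower in CT2A than in naïve brain (−2.43, adjusted p = 0.0225). As a share of the TPM of both tenascins, Tnc made up 34.7% ± 19.5 in naïve brain and 8.22% ± 6.63 in Mut3, but 64.4% ± 7.42 in GL261, 70.1% ± 20.1 in CT2A and 74.5% ± 24.2 in 005 (SD, n = 3 for each). Pooled over the lines, the difference of 19.6 points did not pass (exact permutation test, two-sided, p = 0.321, adjusted p = 0.321). Without Mut3, the line with the lowest share, it was 35.0 points (exact permutation test, adjusted p = 0.0341). The other 19 of 20 alternatives did not pass (same test, adjusted p up to 0.615).

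Cspg5 and Ptprz1, proteoglycans of the cell membrane, parted in Mut3. Cspg5, a neuroglycan with an EGF-like domain, was at 141, 279 and 132 CPM in naïve brain and was the highest of the 9 genes in TPM in all 3 naïve libraries, in all GL261 tumors and in 005 replicate 3. In the remaining 8 tumors Vcan was highest. Mut3 had 49.0, 41.0 and 51.2 CPM of Cspg5 and CT2A 18.6, 7.61 and 8.53. GL261 had 39.4, 74.5 and 52.6, and 005 had 26.1, 23.2 and 153, its replicate 3 lying within the naïve range. Cspg5 fell in CT2A (log2 fold change −3.99, SE 0.69, adjusted p = 0.00106) and in Mut3 (−1.97, SE 0.63, adjusted p = 0.0221), the latter ending without naïve replicate 2 or any Mut3 library, at −2.05 to −1.36. In 005 the Cspg5 difference was −1.45 and not called by edgeR (adjusted p = 0.128), but it was called without replicate 3 (−2.97) and in limma on log2(TPM + 1) (−2.30, adjusted p = 0.0259) and log2(TPM + 0.1) (−2.51, adjusted p = 0.0321). From naïve brain down, the steps to 005, GL261 and Mut3 did not pass (adjusted p from 0.128 to 0.901), and that from Mut3 to CT2A did.

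Ptprz1, a receptor tyrosine phosphatase of glial progenitors whose secreted form is phosphacan, was at 103, 107 and 82.5 CPM in naïve brain. CT2A had 46.2, 9.31 and 8.53, a log2 fold change of −2.19 (SE 0.68, adjusted p = 0.0193) whose call ended without naïve replicate 2 or CT2A replicates 2 or 3, at −1.91 to −1.71. Mut3 had 401, 137 and 203, above all naïve libraries, but the difference of 1.34 did not pass (SE 0.66, adjusted p = 0.117). It was called when edgeR was fitted to only the samples compared (1.32, adjusted p = 0.0188). GL261 (48.1, 86.5 and 74.6) and 005 (28.4, 29.7 and 112) overlapped naïve brain. No neighbouring pair from Mut3 through naïve brain, GL261 and 005 to CT2A differed by the test (adjusted p from 0.117 to 0.902).

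Most differences between lines that passed the test involved Mut3. Again leaving out Acan, Mut3 exceeded CT2A in 5 of 8 genes (Bcan, Hapln1, Tnr, Cspg5 and Ptprz1), where 6.15% of all genes were lower in CT2A and 6.61% higher. It exceeded GL261 in 4 (Bcan, Vcan, Hapln1 and Tnr, against 6.10%, with 11.1% higher in GL261) and 005 in 4 (Bcan, Hapln1, Tnr and Ptprz1, against 5.76%). The 3 comparisons share the Mut3 libraries. The call of Bcan against GL261 (−2.27, adjusted p = 0.0231) was lost without any 1 GL261 library or Mut3 replicate 1 or 3 and on both TPM scales (adjusted p from 0.053 to 0.0912). Against 005, those of Bcan (−2.05, adjusted p = 0.029) and Ptprz1 (−2.12, adjusted p = 0.0374) were lost without 005 replicate 1 or 2 or Mut3 replicate 1 or 3, with library size, with only the samples compared and on both TPM scales, and that of Ptprz1 also without GL261 replicate 3 and with the replicate block (−2.03, adjusted p = 0.0691). Tnc was the 1 gene higher in a line than in Mut3, in 005 by 2.47 (SE 0.52, adjusted p = 0.00608), where 14.0% of all genes were higher in 005, and was not called with only the samples compared (2.50, adjusted p = 0.0549) or on log2(TPM + 1) (0.85). The log2 difference of Hapln1 from Mut3 was −5.33 in GL261 (SE 0.80), −4.72 in 005 (SE 0.77) and −4.21 in CT2A (SE 0.75), with adjusted p of 0.00102, 0.00164 and 0.00228. That of Tnr was −4.24 in CT2A, −3.53 in GL261 and −3.52 in 005 (SE 0.70 to 0.73, adjusted p from 0.0018 to 0.0049).

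Among the other lines few differences passed. CT2A had more Vcan than GL261, by 2.70 (SE 0.67, adjusted p = 0.0229, against 4.15% of all genes), a call lost without CT2A replicate 2 or 3 or GL261 replicate 1 or 3 (adjusted p from 0.0627 to 0.101). It had less Cspg5, by −2.26 (SE 0.64, adjusted p = 0.0437, against 3.62%). It also had less Cspg5 than 005, by −2.54 (SE 0.64, adjusted p = 0.0416, where 1.99% of all genes were lower in CT2A and 2.12% higher), which was −1.06 and not called without 005 replicate 3. Between GL261 and 005, 0 of 8 genes were called by edgeR, where 1.73% of all genes were higher in GL261 and 0.887% lower. DESeq2 called 1, Vcan, higher in 005, where it called 952 of 17481 genes. Without 005 replicate 3, 3 were called, Vcan and Tnc higher and Hapln1 lower in 005, where 5.86% of all genes were called in either direction. The mean of the lines from genetically altered mice, 005 and Mut3, was higher than that of the chemically induced CT2A and GL261 in 4 genes. It was lower in 0, where 2.20% of all genes were higher and 2.85% lower. These were Hapln1 (2.41, SE 0.50, adjusted p = 0.0112), Bcan (2.31, SE 0.45, adjusted p = 0.00777), Tnr (2.13, SE 0.48, adjusted p = 0.0161) and Vcan (1.66, SE 0.45, adjusted p = 0.0434). The Vcan call was lost with library size (adjusted p = 0.0502), with the replicate block (adjusted p = 0.0503) and without 10 of the 12 tumors, each left out in turn (adjusted p from 0.0641 to 0.123), and that of Tnr without GL261 replicate 1 (1.97, adjusted p = 0.0581). In edgeR's fit of all 15 libraries, however, none of these 4 genes was called higher in 005 than in CT2A or GL261. Mean Tnr was 11.5 CPM in 005, 6.97 in CT2A and 11.4 in GL261, and mean Bcan was 10.3, 1.99 and 8.82. Mean Vcan was 171, 237 and 36.5 in the same order. For Hapln1, the 005 tumors were at 1.21 to 18.8 CPM and the CT2A tumors at 7.94 to 12.3, and none of the 9 genes separated the 2 classes without overlap. With 2 lines in a class, line and class cannot be told apart.

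Markers of the cells that make these genes moved with several of them. All 7 neuron markers and all 3 of net-bearing interneurons were called lower in CT2A and in Mut3, where 20.2% and 19.8% of all genes fell. Ncan and Cspg5 were called lower in the same lines. In GL261 and 005 none of these markers was called, but the median log2 fold change of the neuron markers was −2.06 and −1.79. It was −3.2 in CT2A and −5.64 in Mut3. The difference of Ncan in GL261 and 005, also not called, was −1.72 and −1.79. None of the markers was at 0 in all 3 libraries of any group. Mut3 had the least neuron transcript of the 5 groups, yet its Ncan (15.7 to 29.7 CPM) overlapped that of GL261 (20.5 to 28.4), whose neuron markers summed to 732 to 1740. The summed CPM of 6 oligodendrocyte progenitor markers was 318 to 688 in Mut3, 155 to 200 in GL261 and 33.8 to 112 in the other groups. Of these markers, 4 rose in Mut3 (Olig1, Olig2, Gpr17 and Cspg4), and the mean level of Olig2, a transcription factor of that lineage, was 216 CPM there and 13.8 in naïve brain. GL261, with the next highest sum, had the lowest mean Hapln1 of the groups. Astrocyte markers summed to 424 to 879 CPM in CT2A, 1050 to 1890 in Mut3, 1490 to 2160 in GL261, 398 to 2750 in 005 and 2590 to 2660 in naïve brain. In 005, replicates 1 and 2 were at 763 and 398, within or below the CT2A range. Mean Bcan and Ptprz1 were lowest in CT2A, and Bcan in these 005 tumors (5.36 and 5.92 CPM) was above every CT2A tumor. In 005 replicate 3, Ncan, Cspg5, Ptprz1 and Hapln1 were the highest of the line and Vcan and Tnc the lowest, beside the highest neuron, astrocyte and oligodendrocyte sums of the line. What these cells contributed to each result was not tested.

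**Figure D4:**
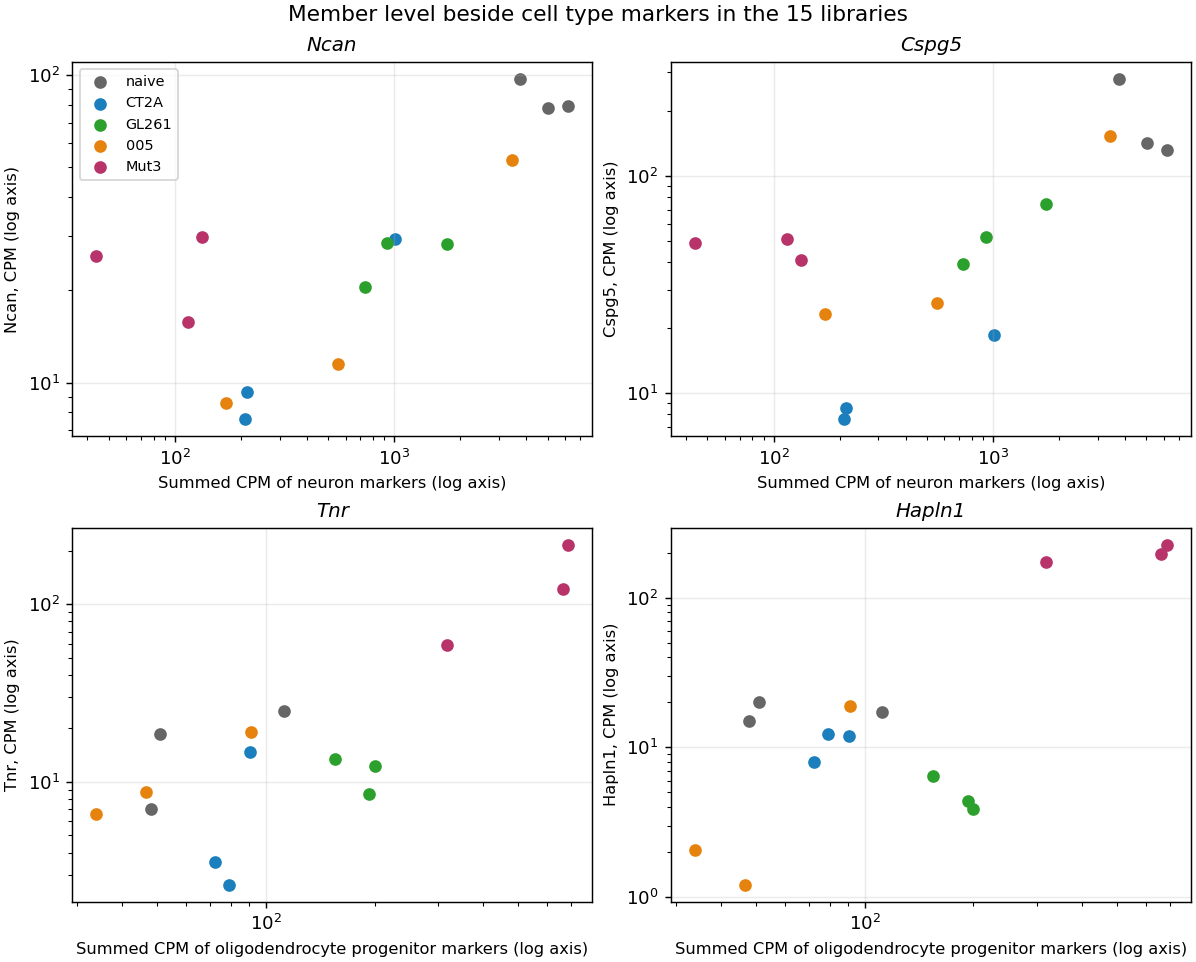
Level of Ncan and Cspg5 against the summed CPM of 7 neuron markers (top), and of Tnr and Hapln1 against that of 6 oligodendrocyte progenitor markers (bottom), 1 point per library, both axes logarithmic. Naïve brain and 005 replicate 3 lie at the upper right of the top panels while Mut3 lies at the far left, and Mut3 (318 to 688 on the lower horizontal axis) lies at the upper right of the bottom panels.

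Around these genes, Cd44 and Hmmr of the hyaluronan group rose in all 4 lines. Has2, with 3 counts in naïve brain in all, passed the filter on low counts through tumors, where it had to be high. Its calls are therefore no support, and its level is given as a ratio. Of 8 listed genes for hyaluronan synthesis and binding, 6 were tested, with 0 falls. Leaving out Has2, those that rose in CT2A and in Mut3 were Cd44, Hmmr and Hyal2, where 19.0% and 17.9% of all genes rose. In GL261 and in 005 only Cd44 and Hmmr rose beside it, against 14.6% and 11.6% of all genes. Cd44, the main hyaluronan receptor, was at a mean of 11.2 CPM in naïve brain, with 13.2 the highest library. It was at 27.3 to 68.1 in Mut3, 58.5 to 289 in 005, 94.5 to 120 in GL261 and 245 to 373 in CT2A, and its log2 fold change ran from 2.21 in Mut3 (adjusted p = 0.00372) to 4.88 in CT2A (adjusted p = 1.32e-04). The order of the lines was thus not that of Vcan, which was highest in Mut3. Hmmr, a hyaluronan receptor that also marks dividing cells, rose by 4.63 to 5.67 (adjusted p from 1.93e-04 to 0.00182). Has2, a hyaluronan synthase, had 3 counts in naïve brain in all, against 855 in GL261, 225 in CT2A, 151 in Mut3 and 60 in 005. The ratio of pooled counts over pooled library sizes was 187 to naïve brain in GL261 (95% exact counting interval 63.7 to 908), 42.3 in CT2A (14.3 to 207), 22.5 in Mut3 (7.55 to 110) and 7.88 in 005 (2.57 to 39.3). These intervals cover counting error only and leave out the spread between mice. In 005 the tumors were at 1.55, 4.1 and 0.783 CPM. Hyal2, a hyaluronidase named after its values were seen, was called in CT2A (1.65, adjusted p = 0.0223) and Mut3 (1.55, adjusted p = 0.029).

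**Figure D5:**
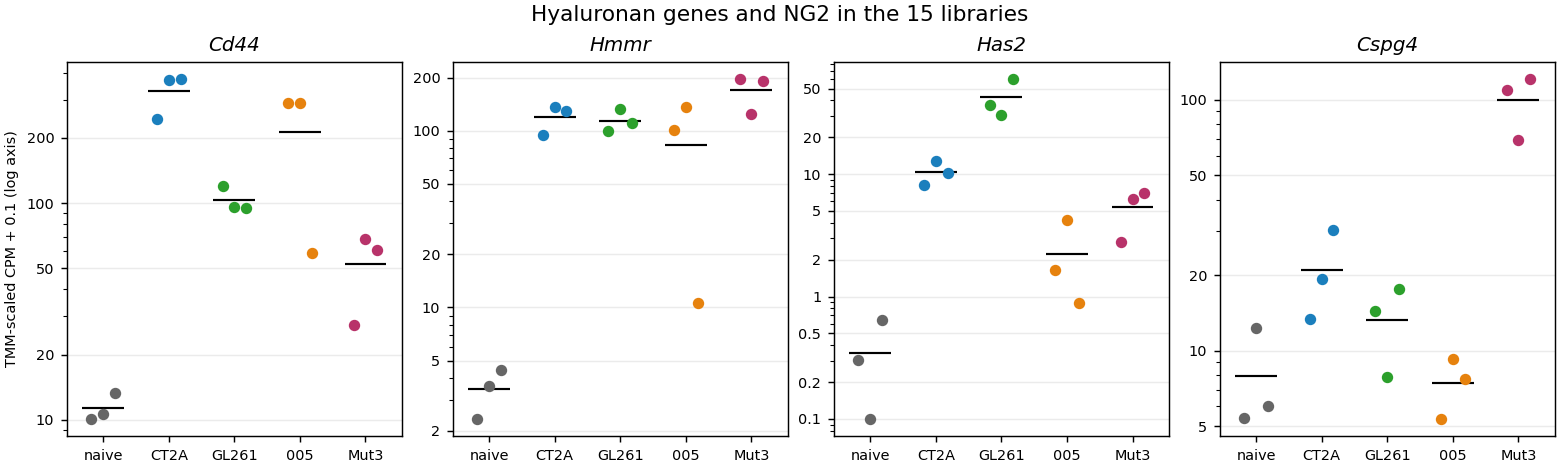
Level of the hyaluronan genes Cd44, Hmmr and Has2 and of Cspg4 (NG2) in the 15 libraries, as TMM-scaled CPM plus 0.1 on a log axis, with points for mice and lines for group means. Each tumor is above the naïve mean for the first 3, and Cspg4 stands out in Mut3 (69.0 to 121 CPM).

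The other partners changed unevenly. Among the remaining link proteins, tenascins and NG2 (4 of 6 tested), Hapln4 and Hapln2, link proteins of mature brain and of nodes of Ranvier, fell in CT2A and Mut3. The calls of Hapln2 rest on few counts, 10, 19 and 4 in naïve brain, 1, 3 and 4 in CT2A and 2, 7 and 3 in Mut3. Its naïve level was highest in replicate 2, and its fit without that library is not given. Hapln4 went from a mean of 35.6 CPM in naïve brain to 9.38 and 1.41 (log2 fold change −1.92, adjusted p = 0.0375, and −4.65, adjusted p = 7.99e-04), so in Mut3 it fell where Hapln1 rose. Cspg4, the NG2 proteoglycan of progenitors and pericytes, rose in the same 2 lines (1.42, adjusted p = 0.0186, and 3.67, adjusted p = 1.9e-04). Neither direction was called in GL261 or 005. Of 19 tested genes for chondroitin sulfate chains, 2 rose and 4 fell in CT2A, as in Mut3, 1 rose and 3 fell in GL261 and 1 rose and 1 fell in 005. B3gat3, which completes the linker that joins the chain to its core protein, fell in all 4 lines, from a mean of 37.3 CPM in naïve brain to 4.64 to 9.93 (adjusted p from 0.00222 to 0.0497). Of 6 tested lectican-cleaving proteases and their inhibitor, Adamts1 rose in CT2A (1.92, adjusted p = 0.00588), GL261 (3.31, adjusted p = 5.25e-04) and Mut3 (1.30, adjusted p = 0.0354), and no other was called in any line. Of 16 receptors and ligands, 3 rose and 8 fell in Mut3, 1 and 8 in CT2A, 3 and 4 in GL261 and 2 and 1 in 005. Itgb1, an integrin chain that binds tenascin-C with its partners, rose in all 4 (1.92 to 2.60, adjusted p from 3.66e-04 to 0.00398), and Ncam1, an adhesion molecule that binds neurocan, fell in all 4 (−1.79 to −1.16, adjusted p from 0.00524 to 0.0491). Of 10 proteoglycans of other tissues, 3 rose in Mut3, where 3 also fell, and 3 rose in CT2A, 2 in 005 and 1 in GL261. Srgn, the proteoglycan of leukocyte granules, rose in CT2A, GL261 and 005 (2.06 to 2.71), and Sdc1, a syndecan, in CT2A, 005 and Mut3 (3.39 to 4.14). All these values are from edgeR's test, beside the shares of all genes given above for each line.

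Over the 15 libraries, the 9 genes fell into patterns that follow the groups and are given as a description. Pearson's r of log2 CPM was 0.92 for Bcan with Ptprz1, 0.90 for Ncan with Cspg5 and 0.81 for Hapln1 with both Acan and Tnr. It was −0.73 for Vcan with Ncan and −0.76 for Hapln1 with Tnc. Among 8929 genes outside the 9 with a mean log2 CPM of at least 3, the closest to Ncan were Syn2 (0.974), a synaptic vesicle gene, Sort1 (0.970) and Slitrk5 (0.966). Those closest to Cspg5 were Fndc4 (0.977), Clcn6 (0.965) and Clasp2 (0.961), and to Bcan Tril (0.957), Ckb (0.953) and Gpr37l1 (0.945). The closest to Tnr was Sox8 (0.941), a transcription factor of the oligodendrocyte lineage, followed by Chn2 (0.919) and Agpat5 (0.906), and to Acan Mia (0.930), AA465934 (0.924) and Hsd17b4 (0.921). Mia, a cartilage and melanoma gene, was also among the 3 closest to Hapln1 (0.886), with Spa17 (0.916) and Gnpat (0.884). Vcan was closest to Srsf6 (0.944), Rrm2 (0.939), a subunit of ribonucleotide reductase, and Tead2 (0.937). Genes close to Tnc included Rap1b (0.946) and Btg1 (0.920), and those closest to Ptprz1 were Ckb (0.950), Pcdh10 (0.941) and Gm38039 (0.926), the antisense gene that overlaps Tnr. The 15 points fall into 5 groups of 3 and share depth and scaling within a library, so a high r need not hold within a line.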

How the data were processed

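RNA from 3 naïve brains and 3 end-stage tumors each of CT2A, GL261, 005 and Mut3 was sequenced. The authors aligned reads with STAR v2.4.2a to the GENCODE mouse genome and marked duplicates with Picard tools, and the submitters' processing notes name Salmon, DESeq2 1.18.1 and mm10. The annotation release and strand setting are not given in the sources used here. The authors deposited expected counts, estimates that need not be whole, and TPM values, scaled to a fixed total and to gene length. The 2 tables are not independent.

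Groups and replicate numbers came from the sample labels. Expected counts were rounded and fitted in R 4.3.3 with edgeR 4.0.16 (filterByExpr, TMM, quasi-likelihood test) over all 15 libraries with a mean per group. Of 46679 genes, 17481 were tested, all 9 members among them, and p-values were adjusted over all of these. Replicates are separate mice. TPM per CPM was 0.461 to 0.648 of its naïve mean in tumors other than 005 replicate 3 (0.90), so TPM was compared within a library, and between libraries only in 2 of the alternatives. Shares of TPM were tested by exact permutation in SciPy 1.17.1. Of the gene identifiers, 478 had no match in the name table.

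Named genes were the 9 members, whatever their values, and in each list those called in most of the 4 comparisons with naïve brain (up to 4). Likeness was the highest Pearson r of log2 CPM (prior count 2). Some items of the genotypes and of the likeness lists are not reported here. Members and lists were chosen with earlier results of these data known. The edgeR steps were tested on simulated data. Alternatives were DESeq2 1.42.0, library size or upper-quartile scaling, other filters, a fit of only the samples compared, limma 3.58.1 on log2(TPM + 1) or log2(TPM + 0.1), no threshold on the fold, a replicate block, and each library left out. Leaving out 005 replicate 3 and naïve replicate 2 together was chosen after seeing the data. The lecticans and tenascins were also compared as shares of counts, and with each line left out.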

Additional observations from a re-analysis of the deposited data

Results flagged for a closer look

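The change from naïve brain differed between lines, by edgeR's test of the 2 lines against each other, for 7 genes. For Ncan no difference between lines passed, and Acan, which passed the filter through Mut3 alone, is given only as a ratio. Groups of 3 are too small for a test of single outlying samples. Relative to Mut3, the log2 difference of Hapln1 was −4.21 in CT2A, −5.33 in GL261 and −4.72 in 005. That of Tnr was −4.24, −3.53 and −3.52, and that of Bcan −4.40, −2.27 and −2.05, in the same order. The ratio of pooled Acan counts over pooled library sizes in Mut3 was 52.7 to CT2A, 18.1 to GL261 and 33.5 to 005. Ptprz1 differed from Mut3 by −3.53 in CT2A and by −2.12 in 005, Vcan by −3.79 in GL261, Cspg5 by −2.02 in CT2A and Tnc by 2.47 in 005. CT2A differed from GL261 by 2.70 in Vcan and by −2.26 in Cspg5, and from 005 by −2.54 in Cspg5. The 3 Cspg5 differences, with adjusted p between 0.0416 and 0.0486 in edgeR's test, were lost under most omissions of 1 library, and those of Bcan from GL261 and 005, Ptprz1 from 005 and Vcan between CT2A and GL261 under 4 or more.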

How the results depend on the processing

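Of 1370 values of 53 fold changes under alternatives, 1190 kept their direction and their side of the threshold, 114 fell below it, 58 rose above it and 8 turned sign. The 8 were all of Tnc and none was called: in CT2A against naïve brain 0.80 became −0.06 with log2(TPM + 1) and −0.09 with log2(TPM + 0.1), and in Mut3 0.05 became −0.02 with library size, −0.17 and −0.53 with these TPM scales, and −0.27, −0.07 and −0.16 without naïve replicate 1, Mut3 replicate 1 and Mut3 replicate 2, within a range of −0.27 to 0.52 over all single omissions. The number of genes called of 9 depended most on the setting in the comparisons that involve GL261 and 005. This number includes Acan, whose calls all involve Mut3 and are left out of the counts given further above. In GL261 against naïve brain it was 1, and 6 with DESeq2, 0 with library size, 5 with no filter, 3 with at least 10 counts in every sample, 5 with only the samples compared, and 3 and 4 with log2(TPM + 1) and log2(TPM + 0.1). Calls over all genes, of 17481 tested unless given otherwise, are set beside each count. Here they were 3913, and, in the same order, 5167, 3533, 4067 of 32244, 2517 of 9435, 5042 of 14418, 4654 and 7234. With at least 10 counts, 7 of the 9 members were tested, without Acan and Bcan. In 005 against naïve brain, 2 members were called, and 0 with only the samples compared and 5 with log2(TPM + 0.1) (all genes 2217, 222 of 14993 and 4456). In CT2A against GL261, 2 members were called, and 1 with library size, either TPM scale or the replicate block. Over all genes it was 1358, and 1208 with library size, 765 and 1133 with log2(TPM + 1) and log2(TPM + 0.1), and 1066 with the block. In CT2A against 005, 1 member was called, and 3 with DESeq2, 2 with no filter or at least 10 counts, and 0 with library size, only the samples compared, either TPM scale or the replicate block. Over all genes it was 719, and, in the same order, 1775, 921 of 32244, 649 of 9435, 601, 108 of 15214, 477, 698 and 393. In GL261 against 005, 0 members were called, and 1 with DESeq2 or no filter (all genes 458, 952 and 601 of 32244). In GL261 against Mut3, 5 members were called, and 3 with at least 10 counts or log2(TPM + 1) (all genes 3015, 1531 of 9435 and 1163). With at least 10 counts Acan and Bcan were not tested, and Vcan, Hapln1 and Tnr stayed called. In 005 against Mut3, 6 members were called, and 3 with only the samples compared or log2(TPM + 1) (all genes 3463, 925 of 15736 and 1088). In 005 and Mut3 against CT2A and GL261, 4 members were called, and 2 with log2(TPM + 1) (all genes 884 and 434). Without 005 replicate 3 and naïve replicate 2, the members called were 5 in both GL261 and 005 against naïve brain, 4 in CT2A against GL261, 2 in CT2A against 005 and 3 in GL261 against 005. Of all genes, 24.4%, 33.3%, 13.3%, 5.6% and 7.17% were then called, in that order. With any 1 library left out, the members called ranged from 0 to 6 in GL261 against naïve brain, 2 to 7 in 005 against naïve brain, 0 to 4 in CT2A against GL261, 0 to 2 in CT2A against 005, 0 to 3 in GL261 against 005 and 2 to 5 in 005 and Mut3 against CT2A and GL261. In the same order, calls over all genes ranged from 1988 to 5535, 1006 to 6535, 599 to 2216, 183 to 791, 192 to 1073 and 597 to 1529, of 18287 to 18588 tested. The Tnc share was 35.0 points without the Mut3 line. The Vcan share differed by 61.2 to 67.4 points with any 1 library left out. Without 1 naïve library it differed by 63.3 to 64.6 points, the Bcan share by −34.8 to −21.6 and the Ncan share by −43.6 to −29.3, none at an adjusted p under 0.05 in the smaller design. The cause of the other changes was not tested.

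Samples that share a replicate number did not deviate together (correlations from −0.331 to 0.262, with 0 of 10 pairs of groups over 0.1 throughout), so the number is only a name, and the replicate block changed no count by over 1.5 times other than those given. Low totals in naïve brain limit what can be said of Acan and Has2 there.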
